A study of Mus musculus with 13 samples.

Results

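The 8 genes described here belong to the cytochrome P450 system and were measured in mouse brown adipose tissue, the heat-producing fat. They are the P450 genes Cyp2b10, Cyp4b1, Cyp1b1, Cyp2e1 and Cyp27a1 and the electron-donor genes Por, Cyb5a and Cyb5r3. They were picked by gene symbol from the 55357 genes of the count table, and all 8 had enough counts to be tested. The choice was made with results of these data known, and the values that led to it are not recorded. The tests below therefore describe where these genes lie among all genes and are not independent evidence.

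The study compared mice that lack Stim1 and Stim2, the calcium sensors of the endoplasmic reticulum, in adipocytes with control mice, after cold and at room temperature (RT). The knockout (KO, Stim1/2_Adp-Cre) is driven by Cre under the adiponectin promoter, so other cells of the tissue keep both genes, and the controls are Stim1/2_fl/fl. There were 4 KO and 4 control libraries from mice kept at 4 °C for 6 h, and 3 KO and 2 control libraries from mice at RT. The libraries were made by 3′ end sequencing of bulk RNA, strain, age and sex are not given, and all libraries carry the same batch label.

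Cytochromes P450 are heme enzymes that insert an oxygen atom from O2 into fatty acids, sterols, drugs and other small molecules. Most of them sit in the membrane of the endoplasmic reticulum and take their electrons from NADPH through the reductase encoded by Por. Some also use cytochrome b5 (Cyb5a), which Cyb5r3 reduces from NADH, while mitochondrial P450s such as CYP27A1 are served by ferredoxin and its reductase. The same donors also serve fatty acid desaturases, squalene epoxidase and heme oxygenase.

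The libraries held 1570684 to 2016178 counts each (median 1800685). Levels are given as CPM, counts scaled to the size of each library, and a gene is called where the adjusted p of edgeR's quasi-likelihood test over 11073 genes is below 0.05. For the targeted genes, Stim1 had 78.8 to 108 CPM in KO and 114 to 134 CPM in control cold libraries, and Stim2 had 13.5 to 29.7 CPM in KO and 31.1 to 54.5 CPM in control cold libraries. Each Stim gene was also lower in every KO than in every control library at RT, as were 7.96% of all genes. In cold, Stim2 was called lower in KO (log2 -0.88 ± 0.24 SE, adjusted p = 0.0382). Stim1 was not called in cold (log2 -0.45 ± 0.13 SE, adjusted p = 0.057). At RT neither was called (log2 -0.90 ± 0.17 SE for Stim1 and -0.59 ± 0.305 SE for Stim2). A 3′ tag need not lie in the deleted part. The 10 brown adipocyte markers summed to 17120 to 29920 CPM in every library, and 5 of 8 hepatocyte markers (Apoa1, Ttr, Fgb, Apoh, Tat) were at 0 throughout, with the whole list at no more than 1.81 CPM. In bulk tissue, fewer cells of a type and less RNA per cell cannot be told apart. Each library name has its own prefix, but the labels do not say that the libraries come from separate animals, so each p-value reflects the scatter of these libraries, which may be technical.

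Cyp2b10, a drug- and lipid-metabolizing P450 known in liver as a target of the nuclear receptor CAR, ranked 14 of 11073 genes by p for the cold response in KO. It had 616, 403, 389 and 687 CPM in KO cold libraries, against 274, 339.8, 137 and 290.1 CPM in control cold libraries. At RT it had 42.5, 17.8 and 23.1 CPM in KO and 31.7 and 12.1 CPM in control libraries. Every cold library was above every RT library, and every KO cold library was above every control cold library, while the RT genotypes overlapped. Cold raised Cyp2b10 18.6-fold in KO (log2 fold change 4.22 ± 0.38 SE, adjusted p = 3.08e-06) and 11.5-fold in control (3.52 ± 0.45 SE, adjusted p = 6.07e-05). In cold it was 2.01-fold higher in KO than in control (log2 1.01 ± 0.28 SE, adjusted p = 0.0438), and at RT the log2 difference was 0.31 ± 0.48 (SE, adjusted p = 1). The genotype call in cold was lost with DESeq2 (adjusted p = 0.1075) and without KO cold library 1, 2 or 4, control cold library 1, 3 or 4, or KO RT library 3, with adjusted p up to 0.127 and log2 values from 0.80 to 1.12. The near relatives of Cyp2b10 carried few counts (Cyp2b9 19, Cyp2b13 2, Cyp2b19 0 and Cyp2b23 0 over all libraries, against 5591 for Cyp2b10).

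Cyp4b1, which hydroxylates fatty acids and some foreign compounds, had 312, 365, 272 and 262 CPM in KO cold libraries and 426, 256, 277 and 554 CPM in control cold libraries. RT levels were 25.3, 25.8 and 43.0 CPM in KO and 28.0 and 70.5 CPM in control libraries. The genotypes overlapped at both temperatures, and all cold libraries lay above all RT libraries. Cold raised it 9.62-fold in KO (log2 3.27 ± 0.33 SE, adjusted p = 7.98e-06) and 7.81-fold in control (2.96 ± 0.37 SE, adjusted p = 5.67e-05), and each call held under every alternative tried. KO differed from control by log2 -0.32 ± 0.25 in cold (adjusted p = 0.525) and -0.62 ± 0.39 at RT (adjusted p = 1), with n = 4 and 4 in cold and n = 3 and 2 at RT (edgeR).

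Cyp1b1, a P450 of estrogens, retinoids and polycyclic compounds, was at the bottom of the range, with 17.1, 14.1, 19.1 and 14.1 CPM in KO cold libraries and 19.6, 15.4, 4.96 and 19.1 CPM in control cold libraries. It had 9.12, 4.59 and 7.35 CPM in KO RT and 5.98 and 4.82 CPM in control RT libraries. Cold control library 3 lay inside the RT range, and the other cold libraries were above all RT libraries. The cold change was log2 1.18 ± 0.36 in KO (SE, adjusted p = 0.0319) and 1.42 ± 0.44 in control (SE, adjusted p = 0.028). Each call was lost when any 1 of several libraries was left out. Over all left-out libraries the log2 values ran from 0.96 to 1.41 in KO and from 1.24 to 1.71 in control. The KO call was lost without KO cold library 1 or 3 or KO RT library 2 or 3, with adjusted p up to 0.125. The control call was lost without control cold library 1 or 4 or either control RT library, with adjusted p up to 0.122, and with the 2 groups alone (0.0842). KO differed from control by log2 0.13 ± 0.31 in cold (SE, adjusted p = 0.861) and 0.37 ± 0.50 at RT (SE, adjusted p = 1).

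**Figure D1:**
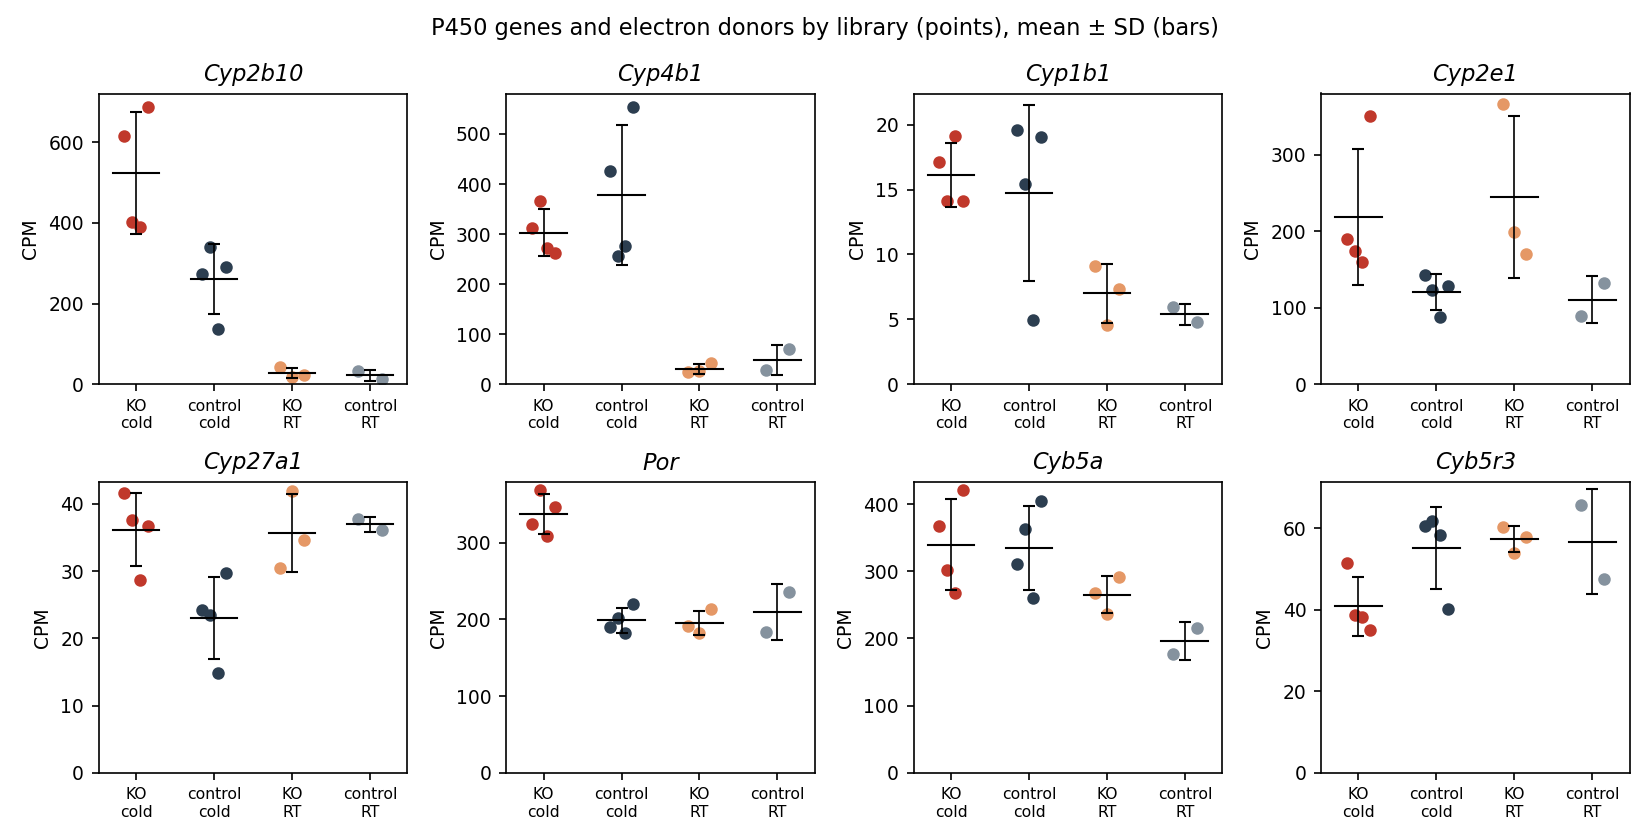
Scaled CPM of each of the 8 genes by library (vertical axes linear from 0), with the groups in the order KO cold, control cold, KO RT and control RT, points for libraries and bars for group means ± SD. Cyp2b10 and Cyp4b1 lie far above their RT values in every cold library, and Por stands apart only in KO cold libraries.

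Promoter sequences are shown for Cyp2b10 and Cyp4b1, the pair of P450s with the largest cold changes, and for Por, whose genotype call in cold held in all alternatives tried. They are 250 bases before to 20 after the RefSeq start site in GRCm38.p6, which is not the GRCm39 build of the counts. Capitals mark GCGTG, the core of the AHR-ARNT motif, or CACGC, the same motif on the other strand. Cyp2b10 is chr7:25897408-25897677, plus strand. Cyp4b1 is chr4:115647702-115647971, minus strand. Por is chr5:135688895-135689164, plus strand.
Cyp2b10: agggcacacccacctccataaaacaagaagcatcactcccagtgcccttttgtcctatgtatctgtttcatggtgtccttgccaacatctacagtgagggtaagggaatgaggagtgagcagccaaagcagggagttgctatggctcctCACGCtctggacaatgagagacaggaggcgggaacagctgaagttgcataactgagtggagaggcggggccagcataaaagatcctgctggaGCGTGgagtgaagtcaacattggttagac
Cyp4b1: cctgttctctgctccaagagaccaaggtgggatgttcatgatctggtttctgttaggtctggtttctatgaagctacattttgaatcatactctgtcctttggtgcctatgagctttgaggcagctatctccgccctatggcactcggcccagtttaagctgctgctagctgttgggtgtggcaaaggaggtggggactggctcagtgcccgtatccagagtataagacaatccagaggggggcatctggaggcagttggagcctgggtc
Por: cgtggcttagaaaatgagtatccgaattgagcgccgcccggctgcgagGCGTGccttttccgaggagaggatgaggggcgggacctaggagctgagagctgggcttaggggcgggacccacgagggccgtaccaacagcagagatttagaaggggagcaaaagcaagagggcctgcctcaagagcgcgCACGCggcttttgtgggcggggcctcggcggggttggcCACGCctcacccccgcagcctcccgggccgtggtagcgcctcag
Over both strands, the Por window held 3 GCGTG matches and the Cyp2b10 window 2, and the Cyp4b1 window held none. Of 32851 promoter windows in the table, 30% hold at least 1. The nuclear receptor half-site AGGTCA, the cAMP response element TGACGTCA and the TATA box TATAAA had no match in these 3 windows, and occur in 15%, 1.73% and 12.9% of all windows. Windows were read for 6 of the 8 genes, with Cyb5a and Cyb5r3 left out. Among these, Cyp1b1 also held 1 GCGTG and Cyp2e1 held 1 TATAAA. A match describes letters and is not evidence of binding. Only the exact letters were searched, so a window without a match can still hold a near variant of the motif.

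Cyp2e1 oxidizes ethanol and other small molecules, and its KO libraries all lay above the control libraries of the same temperature. It had 190.3, 174, 159 and 351 CPM in KO cold libraries and 143, 124, 87.3 and 128 CPM in control cold libraries, with no overlap. The RT libraries had 366, 199 and 170.1 CPM in KO and 89.2 and 132 CPM in control libraries, with no overlap either. The log2 differences were 0.86 ± 0.27 in cold (SE, adjusted p = 0.0696) and 1.15 ± 0.35 at RT (SE, adjusted p = 1), so neither passed the threshold. In cold the adjusted p was below it with DESeq2 (0.0317), with the 2 cold groups alone (0.0425) and without KO RT library 1 (0.0409), and the log2 difference was 0.53 without KO cold library 4. With no filter on low counts the adjusted p was 1.24e-07 in cold and 1.62e-06 at RT, which the other settings do not share. That setting also took Cyp2b10 between genotypes in cold to an adjusted p of 7.26e-12 at log2 1.01. Cyp4b1 with cold in KO went to 7.32e-76, whereas Cyb5r3 between genotypes in cold had 0.159. The cause was not tested. For Cyp2e1 the log2 difference of cold from RT was -0.16 ± 0.28 in KO (SE, adjusted p = 0.726) and 0.13 ± 0.33 in control (SE, adjusted p = 0.809).

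Cyp27a1, the mitochondrial sterol 27-hydroxylase, had 41.6, 37.6, 28.7 and 36.7 CPM in KO cold libraries and 24.2, 23.5, 14.9 and 29.6 CPM in control cold libraries. Libraries at RT had 30.4, 41.9 and 34.6 CPM in KO and 37.7 and 36.2 CPM in control libraries. Cold control libraries were all below the RT control libraries, whereas KO libraries overlapped between temperatures. Cold lowered it in control (log2 -0.69 ± 0.23 SE, adjusted p = 0.0368), a call lost with DESeq2 (0.0707), with the 2 groups alone (0.0947) and without control cold library 1, 2 or 3 or either control RT library (adjusted p 0.0549 to 0.184). In KO the cold change was 0.02 ± 0.20 (SE, adjusted p = 0.953), but the difference between these responses was not called (log2 0.71 ± 0.30 SE, adjusted p = 0.542). KO lay above control in cold by 0.65 ± 0.19 (SE, adjusted p = 0.0559). It passed the threshold only without control cold library 4 (0.0336) and with no filter (0.0322), which also lowered adjusted p for other genes.

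Por, the NADPH reductase that supplies microsomal P450s, was the clearest genotype difference among the 8 genes. It had 325, 369, 309 and 347 CPM in KO cold libraries, against 191, 202, 183 and 219.5 CPM in control cold libraries. At RT it had 192, 182 and 213 CPM in KO and 183 and 236 CPM in control libraries. KO cold libraries stood above every other library, and the other 3 groups overlapped. In cold, Por was 1.70-fold higher in KO than in control (log2 0.76 ± 0.11 SE, adjusted p = 0.000546), a call kept in all alternatives tried. At RT the log2 difference was -0.09 ± 0.14 (SE, adjusted p = 1). Cold raised Por in KO (log2 0.78 ± 0.12 SE, adjusted p = 0.000313) and in control the log2 difference was -0.07 ± 0.14 (SE, adjusted p = 0.726). The difference between the cold responses was 0.86 ± 0.18 (SE), with an unadjusted p of 0.00018, rank 12 of all genes, and an adjusted p of 0.158. It passed with DESeq2 (0.00365) and with no filter on low counts (0.0181), and not in the other alternatives. The fit with no filter also lowered adjusted p far for other genes, as given for Cyp2e1.

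**Figure D2:**
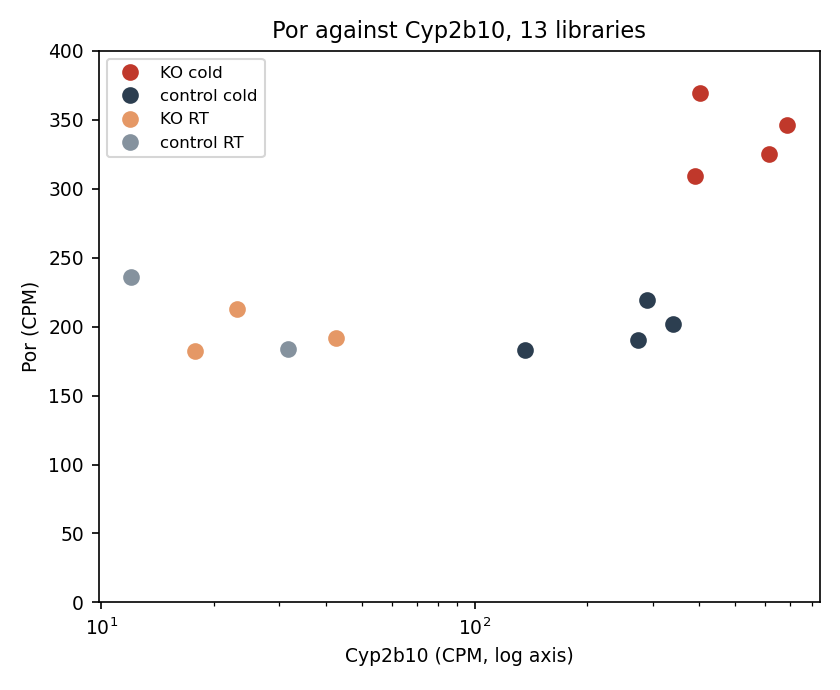
Scaled CPM of Por (vertical axis, linear) against Cyp2b10 (horizontal axis, log) in the 13 libraries, 1 point per library in the colour of its group. The 4 KO cold libraries lie at the upper right, at 309 CPM of Por or more, and no library of another group exceeds 236 CPM of Por.

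Cyb5a, cytochrome b5, had 368, 302, 268 and 420.4 CPM in KO cold libraries and 312, 363, 259.6 and 404 CPM in control cold libraries, and the genotypes overlapped. At RT it had 268, 236 and 291 CPM in KO and 177 and 216 CPM in control libraries, without overlap. The RT difference was log2 0.44 ± 0.20 (SE, unadjusted p = 0.0459, adjusted p = 1), and the cold difference 0.02 ± 0.15 (SE, adjusted p = 0.957). Cold raised Cyb5a in control (log2 0.77 ± 0.20 SE, adjusted p = 0.00919), a call lost without control RT library 1 (adjusted p = 0.132), and in KO the change was 0.35 ± 0.17 (SE, adjusted p = 0.154).

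Cyb5r3, its NADH reductase, had 51.4, 38.6, 38.3 and 35.0 CPM in KO cold libraries and 60.5, 61.8, 58.2 and 40.2 CPM in control cold libraries. Its RT levels were 60.3, 53.9 and 57.7 CPM in KO and 65.8 and 47.6 CPM in control libraries. KO cold libraries were all below the KO RT libraries and overlapped the control cold libraries. The KO change with cold was log2 -0.49 ± 0.18 (SE, adjusted p = 0.0606), and it passed without KO cold library 1 (0.0306), without control cold library 4 (0.0339) and with the 2 groups alone (0.0244). KO against control in cold was -0.44 ± 0.17 (SE, adjusted p = 0.133), and it passed without control cold library 4 (0.049).

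**Figure D3:**
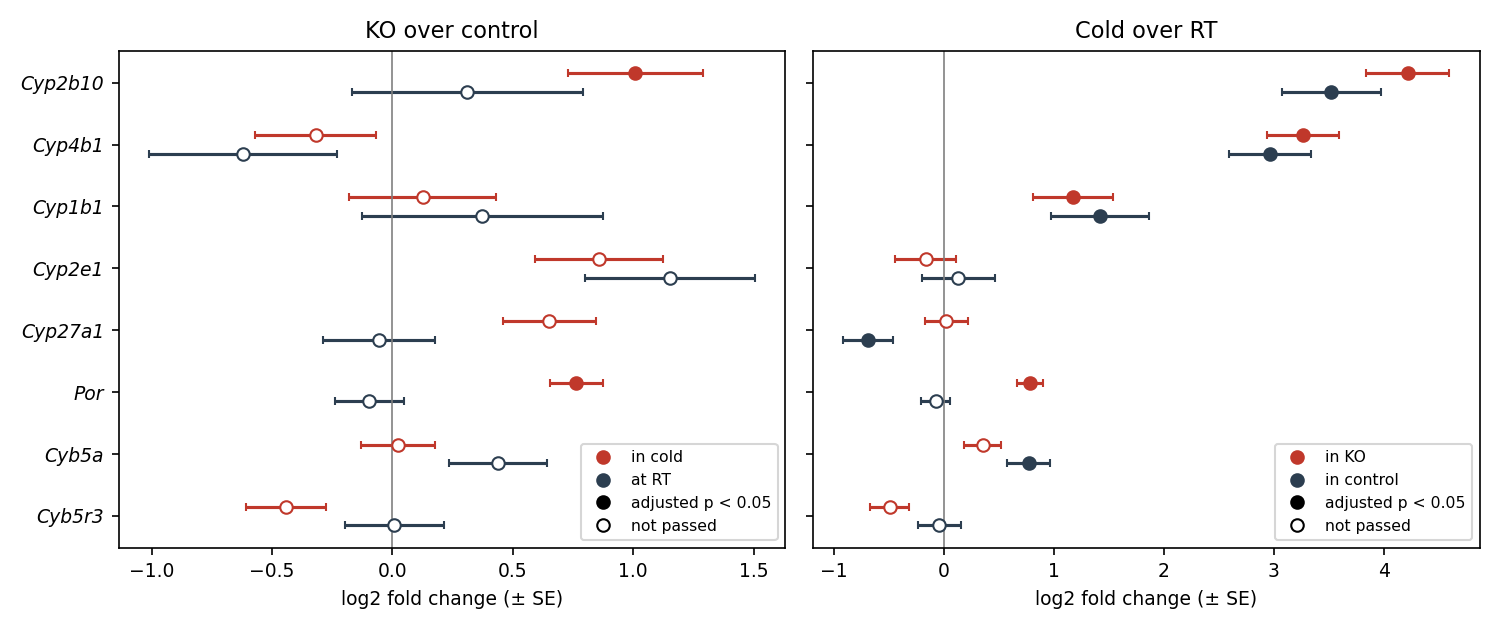
log2 fold changes with standard errors from edgeR for the 8 genes, KO over control on the left (in cold and at RT) and cold over RT on the right (in KO and in control), with filled points for an adjusted p below 0.05. Cyp2b10 and Cyp4b1 have the largest cold changes, and Por the smallest standard error of the genotype difference in cold.

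Counted together, KO against control in cold called 2 of 8 genes, Cyp2b10 and Por, where 5.93% of all genes were called. Both were higher, and of all genes 2.44% were called higher and 3.49% lower. Groups did not overlap for 3 of 8, all higher, against 12.8% of all genes (6.28% higher and 6.53% lower). The median log2 difference was 0.39 for the 8 genes and -0.01 for all genes.

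At RT edgeR called 0 of 8 between genotypes, as for all genes (0%), with 2 of 8 and 346 of all genes at an unadjusted p below 0.05 and 0 of 8 called by DESeq2. Groups did not overlap for 2 of 8, Cyp2e1 and Cyb5a, both higher, where 16.6% of all genes did not overlap (8.68% higher and 7.96% lower).

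Cold in KO called 4 of 8, all higher, beside 18.9% of all genes (9.43% higher and 9.45% lower). Groups did not overlap for 5 of 8, with Cyb5r3 the lower one, beside 32.2% of all genes (15.8% higher and 16.4% lower). Cold in control called 5 of 8, 4 higher and Cyp27a1 lower, beside 25.2% of all genes (12.7% higher and 12.6% lower). Groups did not overlap for 4 of 8, with Cyp27a1 the lower one, beside 40.4% of all genes (19.8% higher and 20.6% lower). The difference of cold responses called 0 of 8 by edgeR, beside 0.0181% of all genes. In edgeR 2 of 8 were at an unadjusted p below 0.05, beside 913 of all genes. DESeq2 called 1 of 8, Por, beside 36 of all genes. Beside Por, the adjusted p of this difference ran from 0.542 (Cyp27a1) to 0.953 (Cyp1b1), and for Cyp2b10 the log2 value was 0.70 ± 0.56 (SE, adjusted p = 0.81). The comparisons share libraries, since the KO cold libraries serve in the cold genotype comparison and in the KO cold comparison, and likewise for the other groups.

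Marker levels moved beside these results. The brown adipocyte markers summed to 22260 to 23420 CPM in KO cold libraries and 24710 to 29920 CPM in control cold libraries. Of these 10 markers, 1 was called higher and 1 lower in KO in cold, beside 2.44% and 3.49% of all genes. By mean CPM, Adipoq, Plin1, Cidea, Lipe and Cebpa were higher in KO cold than in control cold libraries. Fabp4, Ucp1, Pparg, Dio2 and Ppargc1a were lower. Fibroblast markers summed to 597 to 690 CPM in KO cold libraries and 563 to 1581 CPM in control cold libraries, and to 713 to 1417 CPM in KO RT and 924 to 964 CPM in control RT libraries. Of 9 tested fibroblast markers 5 were lower in cold than at RT in KO, beside 9.45% of all genes. In control 0 were lower and 1 was higher, beside 12.6% and 12.7% of all genes. Among control cold libraries, library 2 was highest for these markers and library 3, the lowest control cold library for Cyp2b10, Por, Cyp2e1, Cyp27a1, Cyp1b1 and Cyb5a, was lowest. Skeletal muscle markers summed to 53.7 to 286 CPM in KO cold libraries and 47.8 to 211 CPM in control cold libraries, and to 163 to 1223 CPM in KO RT and 111 to 1967 CPM in control RT libraries. Of 8 such markers 2 were lower in cold than at RT in KO and 6 in control, beside the same shares. Of 10 endothelial markers, cold called 1 higher in KO, and 1 higher and 2 lower in control. Of 9 tested smooth muscle and pericyte markers, 2 were lower with cold in each genotype. Of 9 tested macrophage markers, 1 was higher with cold in each genotype. Beside these lists, cold called 9.43% of all genes higher and 9.45% lower in KO, and 12.7% higher and 12.6% lower in control. The part of all these markers in the results was not tested.

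**Figure D4:**
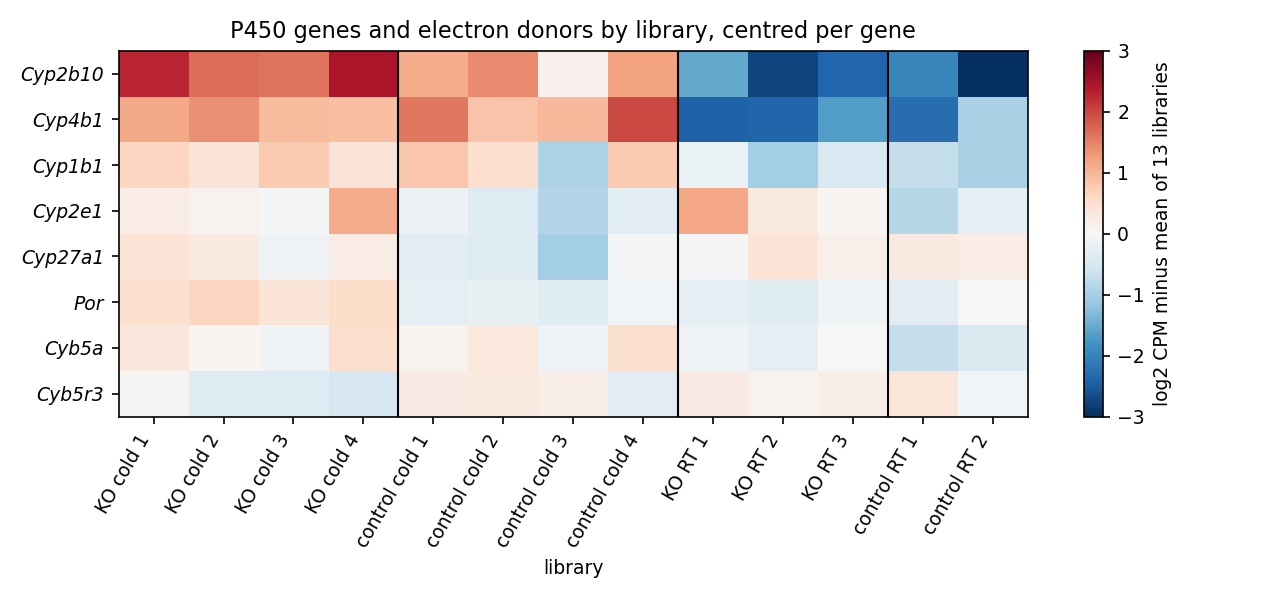
log2 scaled CPM of the 8 genes in each of the 13 libraries, centred per gene, libraries in columns grouped as KO cold, control cold, KO RT and control RT. Cyp2b10 and Cyp4b1 split by temperature and Por is raised in the KO cold columns.

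The other genes of the system were given by lists chosen with earlier results known. Of 91 other P450 genes, 53 had no count in any library and 11 could be tested. KO against control called 0 of 11 in cold (1 at an unadjusted p below 0.05) and 0 at RT (0 at that p), and DESeq2 called 0 in each. Cold called 2 of 11 in KO and in control, beside 18.9% and 25.2% of all genes, both of them higher: Cyp2u1, a fatty acid hydroxylase, at 118.8 ± 17.6 CPM in KO cold (SD, n = 4) and 59.2 ± 10.1 CPM in KO RT libraries (SD, n = 3) (log2 0.9997 ± 0.16 SE, adjusted p = 0.000454), and Cyp51, lanosterol demethylase, at 64.1 CPM in KO cold libraries and 30.3 CPM in KO RT libraries (log2 1.08 ± 0.22 SE, adjusted p = 0.00307). In control, Cyp51 rose by 0.91 ± 0.25 (SE, adjusted p = 0.014), a call lost without control RT library 1 (0.123). Of 11 other electron donors and partners, 0 were called between genotypes in either condition by edgeR or DESeq2. At an unadjusted p below 0.05 there were 3 in cold and 0 at RT, beside the 2224 and 346 of all genes. Cold in KO, beside 18.9% of all genes, called 2 higher, Cyb5r1 (log2 0.93 ± 0.20 SE, adjusted p = 0.00347) and Mtrr (1.18 ± 0.31 SE, adjusted p = 0.0142), and 1 lower, Pgrmc1 (-0.39 ± 0.13 SE, adjusted p = 0.0432). The Mtrr call was lost without KO RT library 1 (0.0803) or 2 (0.0574). The Pgrmc1 call was lost with DESeq2 (0.0834), with no filter on low counts (0.176) and without KO cold library 1, 2 or 3, control cold library 1 or any 1 RT library (adjusted p 0.0517 to 0.176). In control, beside 25.2% of all genes, it called 0 higher and 1 lower, Pgrmc2 (-0.50 ± 0.12 SE, adjusted p = 0.00552), a call lost without control RT library 1 (0.0849).

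Among 12 other enzymes that take electrons from POR or cytochrome b5, 2 were lower in KO than in control in cold and 0 higher, beside 3.49% of all genes called lower and 2.44% higher. Scd1, the stearoyl-CoA desaturase, averaged 3024 ± 589 CPM in KO cold libraries and 5035 ± 566 CPM in control cold libraries (SD, n = 4 each, log2 -0.74 ± 0.14 SE, adjusted p = 0.00628). Hmox1, heme oxygenase, averaged 34.1 ± 15.9 CPM in KO cold libraries and 108.4 ± 66.3 CPM in control cold libraries (SD, n = 4 each, log2 -1.65 ± 0.39 SE, adjusted p = 0.0193), a call lost without control cold library 4 (0.0578). Hmox1 rose with cold by log2 2.22 in KO and 3.48 in control, and the KO call was lost without KO RT library 2 (0.052). With cold, 2 of the 12 were called higher and 2 lower in KO, beside 9.43% and 9.45% of all genes. In control 4 were higher and 2 lower, beside 12.7% and 12.6%. Of 14 tested xenobiotic and lipid receptors, 1 was called between genotypes in cold, beside 5.93% of all genes. Ppara, a fatty acid sensor, averaged 248 ± 60.1 CPM in KO cold libraries and 142 ± 34.9 CPM in control cold libraries (SD, n = 4 each) and was higher in KO (log2 0.81 ± 0.18 SE, adjusted p = 0.0145), and lost its call without KO cold library 2 (0.0523). With cold, 2 of the 14 were called higher and 0 lower in KO, and 1 higher and 1 lower in control, beside the cold shares just given. The lower was Ppara (log2 -0.80), a call lost without control RT library 2 (0.0936). Nr1i3, which encodes CAR, had 0 counts in all 13 libraries, which allows up to 0.13 CPM over the 23044613 counts summed, for counting error only.

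Of 41 tested drug-metabolizing enzymes, 3 were higher and 1 lower in KO in cold, beside 2.44% of all genes called higher and 3.49% lower. Ephx2, an epoxide hydrolase, averaged 857.8 CPM in KO and 525 CPM in control cold libraries (log2 0.71 ± 0.12 SE, adjusted p = 0.00211), and Adh1, an alcohol dehydrogenase, 67.6 CPM in KO and 37.4 CPM in control (log2 0.86 ± 0.16 SE, adjusted p = 0.00447). Abcc4 was also higher (log2 0.68, adjusted p = 0.0433), and lost its call without any 1 of the cold libraries other than control cold library 4 (adjusted p 0.0632 to 0.112). Maob was lower (log2 -0.51, adjusted p = 0.0121). With cold, 4 of the 41 were called higher and 7 lower in KO, beside 9.43% and 9.45% of all genes. In control 2 were higher and 10 lower, beside 12.7% and 12.6%. Of 17 tested heme genes, 2 were higher in KO than in control in cold and 0 lower, beside 2.44% and 3.49% of all genes. Alas1, the first enzyme of heme synthesis, averaged 144.9 CPM in KO and 82.8 CPM in control cold libraries (log2 0.81 ± 0.14 SE, adjusted p = 0.00299). Cpox, a later step, averaged 55.6 CPM in KO and 31.7 CPM in control cold libraries (log2 0.80 ± 0.13 SE, adjusted p = 0.00178). With cold, 1 heme gene was higher and 4 lower in KO, beside 9.43% of all genes called higher and 9.45% lower. In control 1 was higher and 7 lower, beside 12.7% of all genes called higher and 12.6% lower, and Alas1 was among the lower (log2 -0.81, adjusted p = 0.00266). Between genotypes at RT, edgeR and DESeq2 each called 0 genes of these lists, with 1 of the electron acceptors, 1 of the receptors, 2 of the drug-metabolizing enzymes and 1 heme gene at an unadjusted p below 0.05.

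Genes most like the P450 and donor genes other than Cyp1b1, by Pearson's r of log2 CPM over 13 libraries that share the groups and depth, were Smim41 for Cyp2b10 (r = 0.967), Calr for Por (0.957), Alas2 for Cyp2e1 (0.835), Cd36 for Cyp4b1 (0.986), Atxn10 for Cyp27a1 (0.893), Trp53bp2 for Cyb5a (0.901) and 1110008P14Rik for Cyb5r3 (0.939). The next were C330007P06Rik and Gm11827 for Cyp2b10, Rpn1 (0.938) and Hsp90b1 (0.921) for Por, and Aldh6a1 and Glud1 for Cyp2e1. Maff and Sav1 followed for Cyp4b1, Slc27a1 and Ift81 for Cyp27a1, Ehhadh and Dpep1 for Cyb5a, and Tmem223 and Eno1 for Cyb5r3.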

How the data were processed

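Brown adipose tissue RNA of 13 libraries was sequenced from the 3′ end (QuantSeq). The authors deposited raw read counts per gene for all libraries in 1 table, with no normalization. Tools listed in the submitters' processing notes are HTSeq 0.12.3, STAR 2.7.10b, UMI-tools 1.1.2, limma, edgeR and Trim Galore 0.6.7, with GRCm39 as the build. The table is named for Ensembl release 103. Whether reads were collapsed by molecular identifier, and whether counting used strand, is not given in the sources used here. Counts per 3′ tag do not grow with gene length, and antisense neighbours of Por (Gm43091) and Cyb5r3 (Gm49463) carried 15 and 51 counts against 5559 and 1189.

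After 275 repeated identifiers were dropped, 55357 genes remained, of which 11073 passed edgeR's expression filter (minimum count 10). Counts were tested with edgeR 4.0.16's quasi-likelihood test (R 4.3.3, TMM scaling, all 13 libraries in 1 fit with a coefficient per group), two-sided, with Benjamini-Hochberg adjustment over all tested genes and a threshold of 0.05. Levels are TMM-scaled CPM, and the standard error (SE) of a log2 fold change is its size divided by the root of the F statistic. Depth was 1570684 to 2016178 counts per library. The alternatives were relative log expression scaling, no filter, DESeq2 1.42.0, each library left out, the replicate number as a block, and only the 2 groups compared. The procedure was tested on simulated data. Named list genes are up to 4 per list and comparison with the smallest p, and likeness genes are those with the highest r among genes averaging at least 5 CPM. The members and lists were chosen with earlier results of these data known. The likeness result for Cyp1b1 is not reported here.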

Additional observations from a re-analysis of the deposited data

Results flagged for a closer look

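In the 16 sets of 4 cold libraries examined for the 8 genes, 2 held a library far from the other 3, where chance gives about 1 in 20. Cyp2e1 had 351 CPM in KO cold library 4, with a gap of 0.838 of the group's range, past Dixon's critical value. Cyb5r3 had 40.24 CPM in control cold library 4, with a gap of 0.835 of the range.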

How the results depend on the processing

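Left-out libraries gave 392 to 716 genes and 1 to 3 of the 8 genes called for KO against control in cold, 0 to 3 genes and none of the 8 at RT, 1219 to 2271 genes and 3 to 5 of the 8 for cold in KO, 1067 to 2821 genes and 2 to 5 of the 8 for cold in control, and 0 to 4 genes and none of the 8 for the difference of responses. Of these the counts moved most without KO cold library 4 (392), KO RT library 1 (1219) and control RT library 1 (1067). With no filter 982 genes and 4 of the 8 were called between genotypes in cold, against 657 genes in the main fit. It called 50 genes and 1 of the 8 at RT, and 133 genes and 1 of the 8 for the difference. DESeq2 called 3 genes at RT, and 36 genes and 1 of the 8 for the difference. With only the 2 groups, cold in control called 1685 genes and 3 of the 8. The cause was not tested. Replicate numbers are shared between groups, and same-numbered libraries deviated together in 2 of 6 pairs at r above 0.1 (r from -0.163 to 0.333). With 2 control RT libraries, their deviations mirror each other, so this check cannot show whether the numbers mark pairs. With the replicate block 564 genes (3 of the 8), 0 at RT, 1629 (3), 2122 (4) and 0 for the difference were called. Uncalled values changed sign under the block for Cyp27a1 at RT (0.063) and with cold in KO (-0.053) and for Cyb5r3 with cold in control (0.091); the block also brought Cyp2e1 in cold below the threshold (adjusted p = 0.0422) and took Cyp1b1 in KO (0.0535) and Cyp27a1 in control (0.0621) above it, and likewise Hmox1 (0.0531) and Abcc4 (0.0584) between genotypes in cold, Pgrmc1 in KO (0.0556) and Cyp51 in control (0.0573). Leaving out single libraries, uncalled log2 values ranged between genotypes in cold from -0.10 to 0.12 for Cyb5a and -0.16 to 0.31 for Cyp1b1. Between genotypes at RT they ranged from -0.17 to 1.21 for Cyp2b10, -0.19 to 0.045 for Cyp27a1, -0.19 to 0.26 for Cyb5r3, -0.27 to 0.10 for Por and -1.17 to 0.17 for Cyp4b1. With cold in KO they ranged from -0.081 to 0.16 for Cyp27a1 and -0.49 to 0.25 for Cyp2e1, and in control from -0.23 to 0.21 for Cyb5r3, -0.13 to 0.45 for Cyp2e1 and -0.25 to 0.13 for Por. For the difference they ranged from -0.62 to 0.125 for Cyp2e1, -0.19 to 1.19 for Cyp2b10 and -0.48 to 0.86 for Cyp4b1. Cyp1b1 rests on 8 to 34 counts per library.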
